A study of Mus musculus with 16 samples.

Results

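The 7 protein subunits of respiratory complex I that are encoded in the mitochondrial genome, mt-Nd1, mt-Nd2, mt-Nd3, mt-Nd4, mt-Nd4l, mt-Nd5 and mt-Nd6, were followed through 16 RNA sequencing libraries of mouse memory-phenotype B cells. They were chosen by symbol, as the entries of these names in both deposited tables of counts over coding sequence, and are 7 of 22675 genes in the joined tables. All 7 passed the filter on low counts and were tested. The rule itself uses no measured value.

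The series asked how memory B cells that express Zfp318 differ from those that lack it. Smart-seq2, which primes on poly(A) with oligo-dT, was run on about 1000 cells per library, from splenic B cells of C57BL/6 mice at day 7 of a response to NP-OVA given with LPS and alum. Every sorted cell bound the hapten NIP and was B220+, CD38+, CD138-, GL7-, FAS- and IgD-. All mice carried AID-Cre, a recombinase that acts in B cells expressing AID, the B1-8hi heavy chain and GFP in their genotype label, with the Zfp318 allele named ZSDAT. Mice with 1 copy (Zfp318ZSDAT/+) gave the tdTomato-negative sort HetTN and the tdTomato-positive sort HetTP. Mice with 2 copies (ZSDAT/ZSDAT) gave the same sorts as KOTN and KOTP. Each group had 4 libraries. The labels give no age, and leave unsaid whether each library of a group is its own animal. The p-values here therefore speak only of the spread among these libraries, which may be technical.

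Complex I takes electrons from NADH, passes them to ubiquinone and pumps protons across the inner mitochondrial membrane. Its catalytic arm in the matrix is built of nuclear-encoded proteins, while the mitochondrially encoded subunits form the core of the arm within the membrane. B cells raise their respiration on activation, and the mitochondrial genome is transcribed as long RNAs from both strands that are cut into single messages.

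The members lie on the mitochondrial chromosome (GRCm38, GENCODE release M21), each as a gene without introns. mt-Nd1 (ENSMUSG00000064341, chrM:2751-3707), mt-Nd2 (ENSMUSG00000064345, chrM:3914-4951), mt-Nd3 (ENSMUSG00000064360, chrM:9459-9806), mt-Nd4l (ENSMUSG00000065947, chrM:9877-10173), mt-Nd4 (ENSMUSG00000064363, chrM:10167-11544) and mt-Nd5 (ENSMUSG00000064367, chrM:11742-13565) are annotated on the plus strand. mt-Nd6 (ENSMUSG00000064368, chrM:13552-14070) is the 1 member on the minus strand. Its coding strand held 28.1% G and 5.97% C, while the other 6 members held from 8% to 11.6% G and from 22.1% to 30% C. Neighbouring members overlap at 2 places, and these are shown because their shared bases cannot be assigned to 1 gene by position. mt-Nd4l and mt-Nd4 are read from 1 messenger RNA and share 7 bases on the same strand (chrM:10167-10173). The whole of mt-Nd4l and the first 60 bases of mt-Nd4 are printed 5′ to 3′ with the shared bases in capitals, together with the last 60 bases of mt-Nd5 and of mt-Nd6, whose 14 shared bases (chrM:13552-13565) lie on opposite strands.
mt-Nd4l (plus strand): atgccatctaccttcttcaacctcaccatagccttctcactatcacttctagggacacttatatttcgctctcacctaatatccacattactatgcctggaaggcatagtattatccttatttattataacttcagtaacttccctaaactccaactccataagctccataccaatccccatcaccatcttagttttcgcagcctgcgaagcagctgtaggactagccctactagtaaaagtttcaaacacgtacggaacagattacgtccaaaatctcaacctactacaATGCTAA
mt-Nd4 (plus strand, chrM:10167-10226): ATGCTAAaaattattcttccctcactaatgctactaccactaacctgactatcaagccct
mt-Nd5 (plus strand, chrM:13506-13565): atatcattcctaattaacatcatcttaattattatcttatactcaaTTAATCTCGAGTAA
mt-Nd6 (minus strand, chrM:13552-13611): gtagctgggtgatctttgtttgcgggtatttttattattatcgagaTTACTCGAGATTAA
Whether reads were counted by strand is not given in the sources used here, so reads of mt-Nd6 and reads of RNA from the plus strand at the same place cannot be told apart.

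Several members have near-identical copies in nuclear chromosomes, and these decide how far their counts can be read. Every window of 50 bases of each mitochondrial message was looked for in the annotated transcripts of the nuclear chromosomes (GENCODE release M21, either strand). For mt-Nd3 98% of windows and for mt-Nd4l 98.8% had an identical nuclear match, against 62.2% for mt-Nd4, 8.19% for mt-Nd2 and 7.61% for mt-Nd5. mt-Nd1 and mt-Nd6 had no window with an identical match. The copies of mt-Nd3, mt-Nd4l and mt-Nd4 are the unprocessed pseudogenes Gm28438 (chr1:24612775-24613119), Gm10222 (chr1:24612407-24612700) and Gm28439 (chr1:24611535-24612410), all on the minus strand of chromosome 1. Gm10222 matched the first 294 bases of mt-Nd4l without a mismatch, Gm28439 matched the first 876 bases of mt-Nd4, and Gm28438 matched 344 of 345 bases of mt-Nd3. The single difference was T3C, counted from 1 at the 5′ end of the coding sequence. The first 100 bases of mt-Nd3 and of its copy are printed with that base in capitals.
mt-Nd3 (plus strand, chrM:9459-9558): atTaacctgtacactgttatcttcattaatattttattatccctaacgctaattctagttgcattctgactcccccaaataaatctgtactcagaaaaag
Gm28438 (minus strand, chr1:24613020-24613119): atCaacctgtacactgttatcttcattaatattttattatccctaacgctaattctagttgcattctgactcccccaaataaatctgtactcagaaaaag
The copy of mt-Nd6 is further away. Gm11408, a processed pseudogene (chr4:80003396-80003914, minus strand), held 486 of its 519 bases, or 93.6%. In the first 120 bases the substitutions were A24G, T48C, A76G and G116A, printed in capitals in both sequences.
mt-Nd6 (minus strand, chrM:13951-14070): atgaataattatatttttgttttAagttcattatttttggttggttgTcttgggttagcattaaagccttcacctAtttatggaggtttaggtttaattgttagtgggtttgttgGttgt
Gm11408 (minus strand, chr4:80003795-80003914): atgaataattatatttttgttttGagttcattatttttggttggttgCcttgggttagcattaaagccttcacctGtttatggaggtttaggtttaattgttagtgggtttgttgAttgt
How reads that map to several places were counted is not given in the sources used here. Counts of mt-Nd3, mt-Nd4l and mt-Nd4 are therefore uncertain.

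The libraries held between 7748787 and 15742445 counts. Zfp318 stood between 78.8 and 152 CPM (counts per 1000000 of the library total) in the 8 heterozygous libraries, against 0.446 to 5.42 in the 8 homozygous libraries. The heterozygous sorts overlapped, at 78.8 to 152 CPM in HetTN and 92.7 to 133 CPM in HetTP. Between HetTP and HetTN its log2 fold change was -0.21 (edgeR's quasi-likelihood test with 16 libraries, SE 0.43, adjusted p = 0.886). edgeR's biological coefficient of variation was 0.845 among heterozygous and 0.2 among homozygous libraries. Of the tested genes, 12.6% ± 1.07 (SD, n = 4) had no count in a HetTN library, against 9.04% ± 1.88 in HetTP, 1.62% ± 0.0858 in KOTN and 1.98% ± 0.343 in KOTP. Genotype coincides with the deposited table, so a difference between genotypes and a difference in how the tables were made cannot be told apart. B cell markers (9 of 9 measured) summed to between 11049 and 13994 CPM in heterozygous and between 14380 and 16964 CPM in homozygous libraries. Markers of T cells (8 of 8 measured, without a count for Cd4 and Cd28 in any group) summed to between 206 and 676 CPM in heterozygous and between 26.3 and 47.8 CPM in homozygous libraries.

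The members differed widely in level among themselves. Per kilobase of coding sequence, mt-Nd1, which sits where the membrane arm meets the catalytic arm and helps form the quinone site, was highest in HetTN at 6383 ± 1352 CPM per kb (SD, n = 4). mt-Nd5 (1954 ± 345), mt-Nd4 (1696 ± 280) and mt-Nd2 (993 ± 310 CPM per kb), the antiporter-like subunits that carry the proton channels, followed, with mt-Nd6 among them at 1480 ± 464 CPM per kb. Neighbours in the order mt-Nd5, mt-Nd4 and mt-Nd6 differed by less than their SDs. mt-Nd3, which bears a loop near the quinone site, stood at 94 ± 41.1 and mt-Nd4l, a small subunit beside mt-Nd6 in the membrane, at 12.6 ± 4.9 CPM per kb. In KOTN the order was mt-Nd1 (2372 ± 170), mt-Nd5 (1025 ± 51.8), mt-Nd4 (803 ± 54.8), mt-Nd2 (265 ± 17.6), mt-Nd6 (197 ± 26.6), mt-Nd3 (24 ± 13.6) and mt-Nd4l (7.41 ± 0.942 CPM per kb), so that mt-Nd6 came behind mt-Nd2 there. mt-Nd4l had between 9 and 73 counts in a library.

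**Figure D1:**
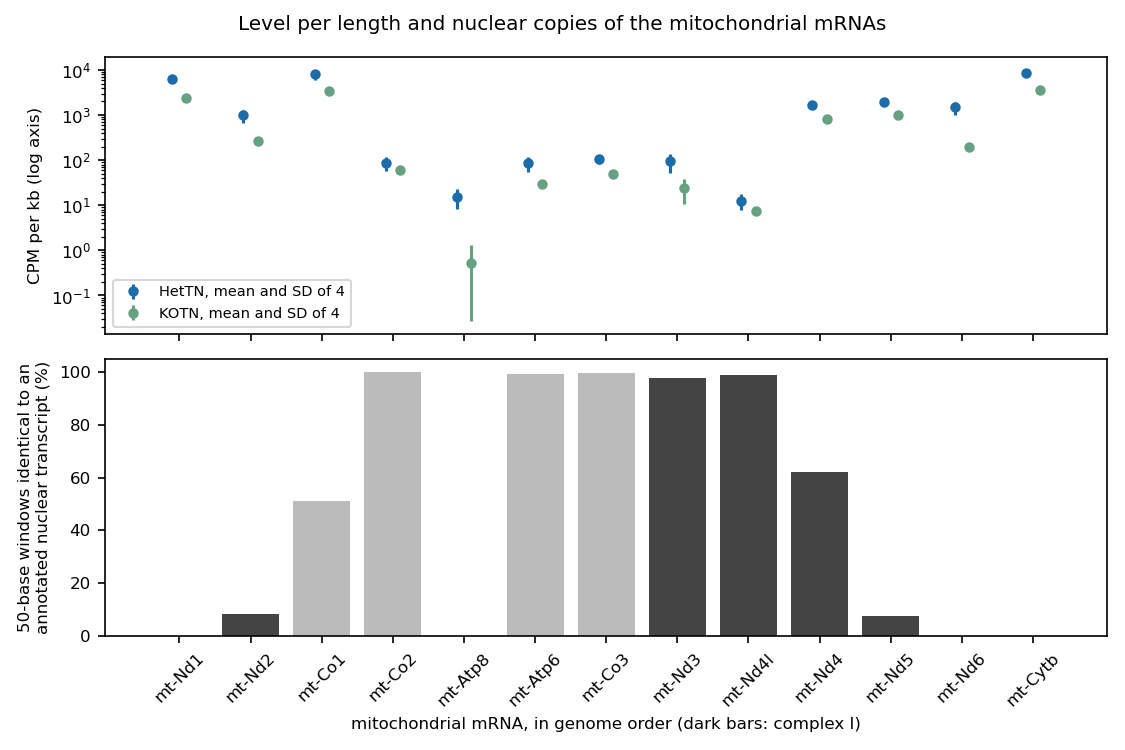
The upper panel plots the mean level of the 13 mitochondrial messages in genome order, in CPM per kb on a log axis, for HetTN and KOTN with the SD of 4 libraries; the lower panel plots the percent of 50-base windows identical to an annotated nuclear transcript, dark for complex I. mt-Nd3 and mt-Nd4l stand at 94 and 12.6 CPM per kb in HetTN, with 98% and 98.8% of windows matched, while mt-Nd1 stands at 6383 with no matched window.

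mt-Nd4l and mt-Nd4 lie on 1 messenger RNA, but their counts were far apart. mt-Nd4l had 0.163% ± 0.0719 (SD, n = 4) of the count of mt-Nd4 in HetTN, 0.139% ± 0.03 in HetTP, 0.199% ± 0.0259 in KOTN and 0.15% ± 0.0155 in KOTP. The 3 messages outside complex I with nearly all windows matched were also low in HetTN, mt-Co2 at 88.1 ± 31.8, mt-Atp6 at 86.5 ± 32.4 and mt-Co3 at 106 ± 23.4 CPM per kb. mt-Atp8 was low at 15.5 ± 7.36 CPM per kb without a matched window in the annotated transcripts. The part of the nuclear copies in these levels was not tested.

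Together the 7 members took 1.38% ± 0.262 (SD, n = 4) of the counts of a HetTN library, with the lowest at 1.06%. In HetTP they took 0.741% ± 0.205, with the highest at 0.943%, so that no HetTP library reached a HetTN library. In KOTN they took 0.563% ± 0.0211 and in KOTP 0.617% ± 0.0334. As a share of the 13 mitochondrial messages the members were nearly level, at 38.4% ± 1.94 in HetTN, 36.6% ± 1.64 in HetTP, 37.1% ± 0.66 in KOTN and 39.1% ± 1.62 in KOTP. These are levels in bulk RNA of sorted cells, in which fewer cells of a type and less RNA per cell cannot be told apart.

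**Figure D2:**
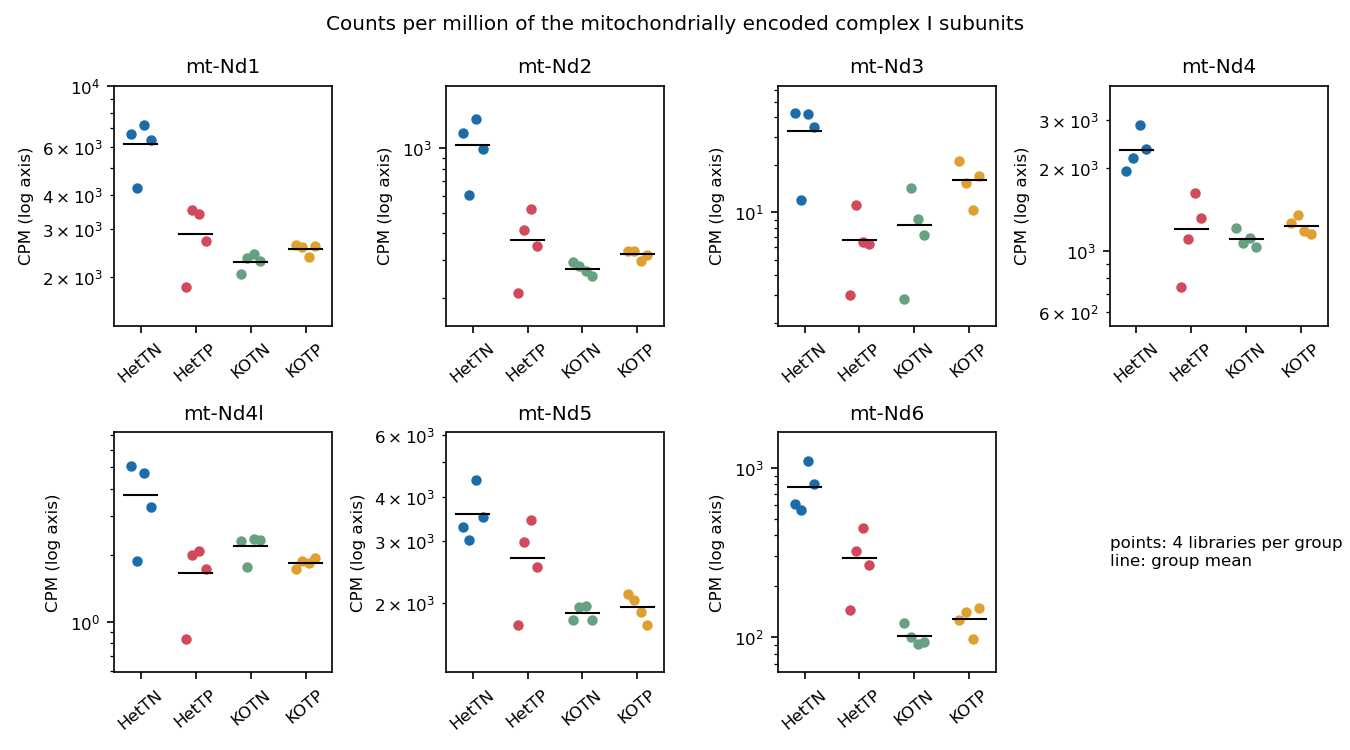
Each panel plots 1 member in CPM on a log axis, with 1 point for each of the 4 libraries of a group and a line at the group mean. By group mean HetTN stands highest for all 7 members, and for mt-Nd6 the 8 homozygous libraries lie between 91.4 and 149 CPM, with 1 HetTP library at 144 among them.

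The first comparison asked whether the reporter sort went with a difference in heterozygous cells. All 7 members were lower in HetTP than in HetTN by point estimate, with a median log2 fold change of -1.26 against 0.02 over all genes. With 1 spread per gene estimated from all 16 libraries, edgeR's quasi-likelihood test with Benjamini-Hochberg adjustment called 5 members lower, mt-Nd1, mt-Nd2, mt-Nd3, mt-Nd4 and mt-Nd6. On simulated libraries with unequal spread most calls of this fit in this comparison were false, so that its adjusted p-values cannot be taken at face value here. The simulation drew on all tested genes and did not test the members by themselves. Its share of false calls also depends on how many changes were planted and how large they were. That share is therefore not an estimate for the calls made here. By the same test 1.07% of 10687 genes were called in either direction and 0.468% as lower. With the spread taken from the 8 heterozygous libraries alone, which vary more, edgeR called 0 members and 0 of 9703 genes. In that fit the members' unadjusted p was under 0.05 for 6 of 7, from 0.000153 to 0.0315, and their adjusted p ran from 0.456 to 1. limma's voom with sample weights called 3 members (mt-Nd1, mt-Nd2 and mt-Nd4) among 4 genes in all, or 0.0374% of those tested. DESeq2 called 6 members, where it called 709 genes or 6.63%.

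mt-Nd1 stood at 6665, 4243, 7194 and 6333 CPM in HetTN libraries 1 to 4 and at 1835, 3525, 3398 and 2698 in HetTP. The groups did not overlap, with HetTN 2 lowest in its group and HetTP 1 lowest of all. The log2 fold change was -1.21 (SE 0.18, adjusted p = 0.00396 with 16 libraries and 0.456 with 8).

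mt-Nd2 counted 1173, 606, 1360 and 983 CPM in HetTN and 212, 413, 519 and 348 in HetTP. HetTN 2 was again the lowest of its group, and stood above every HetTP library. Its log2 fold change was -1.57 (SE 0.23), with the same adjusted p of 0.00396, and 0.456 with 8 libraries. For mt-Nd4 the values were 1955, 2182, 2863 and 2347 in HetTN and 742, 1102, 1622 and 1323 CPM in HetTP, again without overlap. mt-Nd4 differed by -1.09 on the log2 scale (SE 0.19, adjusted p = 0.0112, and 0.568 with 8 libraries).

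mt-Nd5 was the antiporter-like subunit that did not pass. It stood at 3283, 3020, 4462 and 3495 CPM in HetTN and at 1729, 2981, 3440 and 2528 in HetTP, where the highest HetTP library lay above the lower HetTN libraries. The log2 fold change was -0.54 (SE 0.17, adjusted p = 0.112). Its share of the members' counts was 25.9% ± 1.93 (SD, n = 4) in HetTN and 36.1% ± 0.804 in HetTP.

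mt-Nd6, a membrane subunit next to mt-Nd4l, stood at 612, 566, 1097 and 797 CPM in HetTN and at 144, 325, 444 and 266 in HetTP. Every HetTP library was below every HetTN library, and the log2 fold change was -1.50 (SE 0.28, adjusted p = 0.0155, and 0.568 with 8 libraries). mt-Nd3 reached 42.5, 11.9, 41.8 and 34.6 CPM in HetTN and 2.99, 11.1, 6.48 and 6.33 in HetTP. HetTN 2 and HetTP 2 were nearly level, and the remaining libraries lay far apart. The log2 fold change of mt-Nd3 was -2.39 (SE 0.55, adjusted p = 0.0438, and 0.761 with 8 libraries), and its call was lost in 4 of 8 leave-outs (without HetTN 3, HetTP 1, HetTP 3 or HetTP 4), with an adjusted p of up to 0.0687. mt-Nd4l, at 5.06, 1.89, 4.73 and 3.31 CPM in HetTN and 0.84, 2.01, 2.1 and 1.73 in HetTP, overlapped and did not pass (log2 fold change -1.26, SE 0.91, adjusted p = 0.563).

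In all, 5 members had every HetTP library below every HetTN library, against 1.24% of all tested genes. Markers of myeloid cells (12 of 12 measured, Itgam without a count) summed to between 490 and 1366 CPM in HetTN and between 147 and 785 in HetTP. Plasma cell markers (5 of 5 measured) summed to between 263 and 842 CPM in HetTN and between 260 and 359 in HetTP. In this comparison edgeR called 0 of 11 tested myeloid markers (4 at an unadjusted p under 0.05) and 0 of 5 plasma cell markers (1 at an unadjusted p under 0.05, and 1 called by DESeq2), and their part in the members' difference was not tested.

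In tdTomato-negative cells, homozygous libraries held less of the members than heterozygous ones. This comparison shares the HetTN libraries with the one above. edgeR's test with 16 libraries called 6 members lower in KOTN (mt-Nd1, mt-Nd2, mt-Nd3, mt-Nd4, mt-Nd5 and mt-Nd6), while 10.5% of all genes were called in either direction and 4.88% as lower. The median log2 fold change of the 7 members was -1.34. With the 8 compared libraries alone 5 members were called, without mt-Nd3 (adjusted p = 0.0716), among 7.3% of genes. On simulated libraries both fits made more false calls in this comparison than the adjustment allows. The fit of 16 libraries did so to a lesser degree than in HetTP against HetTN.

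The largest fall was that of mt-Nd6, which stood at 122, 101, 91.4 and 94.3 CPM in KOTN against 566 to 1097 in HetTN. The means were 102 ± 13.8 and 768 ± 241 CPM (SD, n = 4), and all 4 KOTN libraries were tightly grouped far below HetTN. mt-Nd6 fell by 2.83 on the log2 scale, 7.12-fold (SE 0.29, adjusted p = 6.69e-06). As stated above, its reads cannot be told apart from reads of plus-strand RNA at the same place.

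mt-Nd1 stood at 2043, 2339, 2423 and 2275 CPM in KOTN, all below the lowest HetTN library. It fell by 1.34 on the log2 scale (SE 0.18, adjusted p = 0.000101). Among the antiporter-like subunits mt-Nd2, at 295, 282, 268 and 253 CPM in KOTN, fell by 1.81 (SE 0.24, adjusted p = 8.06e-05). mt-Nd4, at 1210, 1071, 1112 and 1034 CPM, fell by 1.00 (SE 0.19, adjusted p = 0.00234).

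mt-Nd5, at 1789, 1941, 1960 and 1786 CPM, fell by 0.85 (SE 0.17, adjusted p = 0.00423). None of these 4 members overlapped between the groups. With mt-Nd6 they made 5 members whose KOTN libraries all lay below HetTN, against 8.5% of tested genes. mt-Nd3, at 2.84, 14.3, 9.02 and 7.24 CPM in KOTN, overlapped with HetTN 2. Its log2 fold change was -1.88 (SE 0.54, adjusted p = 0.0324), a call lost in 6 of 8 leave-outs (HetTN 1, 3 and 4 and KOTN 1, 3 and 4), with an adjusted p of up to 0.0958. mt-Nd4l, at 2.32, 1.78, 2.36 and 2.34 CPM, did not pass (log2 fold change -0.66, SE 0.90, adjusted p = 0.743).

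Of the myeloid markers 8 of 11 tested were called lower in KOTN, where their sum was between 102 and 148 CPM against 490 to 1366 in HetTN. Among them C1qc, a complement component made by macrophages, had 3.7 ± 1.99 CPM in KOTN and 133 ± 97.7 in HetTN (SD, n = 4). Over the 11 tested myeloid markers the log2 fold changes ran from -7.62 to 1.82, with 0 called higher. Jchain, the joining chain of secreted antibody polymers, had 48.2 ± 34.8 CPM in KOTN and 354 ± 212 in HetTN, and was the 1 plasma cell marker of 5 called lower. Of the 9 B cell markers 5 were called higher and 1 lower in KOTN. The part of such cells in the members' difference was not tested.

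**Figure D3:**
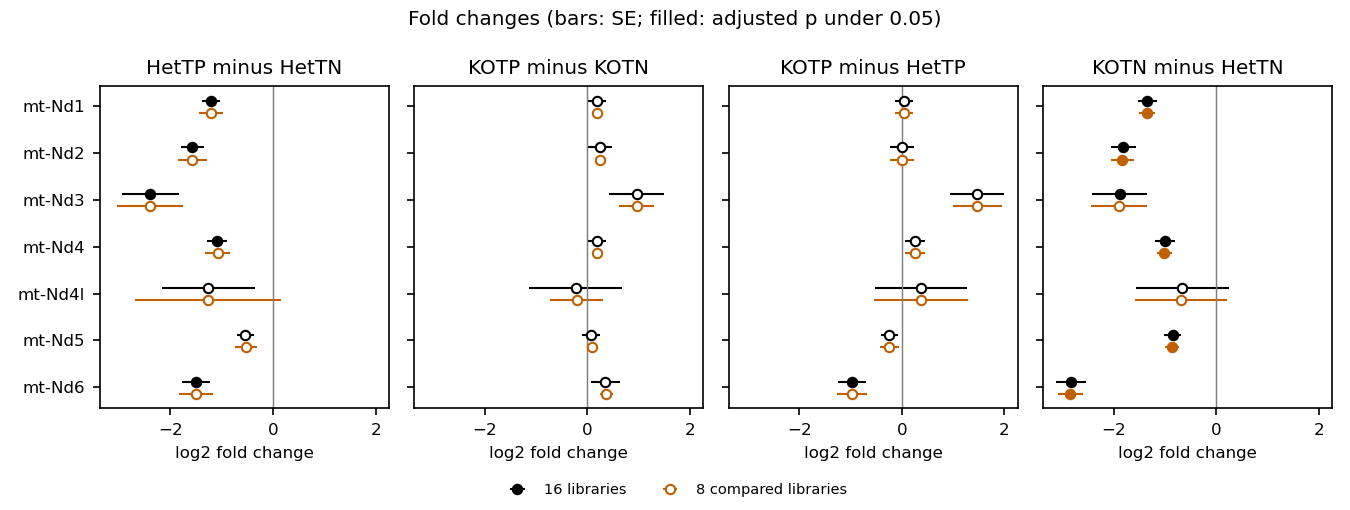
Each panel plots, for 1 comparison, the log2 fold change of the 7 members with its SE, in black with the spread of all 16 libraries and in orange with that of the 8 compared libraries, filled where the adjusted p was under 0.05. Calls in HetTP minus HetTN are filled in black for 5 members and in orange for 0, while in KOTN minus HetTN 5 members are filled in both fits.

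In tdTomato-positive cells the genotypes were closer by point estimate, with a median log2 fold change of the 7 members of 0.04. This comparison shares no library with the one between tdTomato-negative cells. Of the 7 members only mt-Nd6 was called lower in KOTP than in HetTP, while 10.3% of all genes were called in either direction and 5.22% as lower. No member's libraries lay all below HetTP, against 13.8% of tested genes. mt-Nd6 stood at 127, 141, 98.1 and 149 CPM in KOTP. HetTP 1, at 144 CPM, lay within that range and the other HetTP libraries above it. Its log2 fold change was -0.97 (SE 0.28, adjusted p = 0.0301), and it did not pass with the 8 compared libraries alone (adjusted p = 0.063), a fit that called 11.7% of genes. The call was also lost without HetTP 2, HetTP 3, KOTP 1, KOTP 2 or KOTP 3, where the adjusted p reached up to 0.118, and with the replicate number as a block (adjusted p = 0.0589).

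mt-Nd1 was at 2616, 2567, 2354 and 2580 CPM in KOTP and mt-Nd2 at 333, 330, 299 and 319. For both members the KOTP libraries lay inside the range of HetTP. The log2 fold change of mt-Nd1 was 0.04 (SE 0.18, adjusted p = 0.945), and that of mt-Nd2 was within 0.01 of 0 (SE 0.23). With library totals alone as the scale they were -0.18 and -0.22, a scaling that moved the median of all genes to -0.25. mt-Nd4 stood at 1262, 1351, 1178 and 1151 CPM in KOTP (log2 fold change 0.26, SE 0.19, adjusted p = 0.503). mt-Nd5 stood at 2121, 2027, 1882 and 1726 CPM (log2 fold change -0.24, SE 0.17, adjusted p = 0.505). For mt-Nd4 they again lay within the range of HetTP, and for mt-Nd5 they did so but for KOTP 4, just under the lowest HetTP library at 1729 CPM.

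mt-Nd3, at 21.2, 15.4, 10.4 and 16.9 CPM in KOTP, had all 4 KOTP libraries above 3 of the 4 HetTP libraries. Its log2 fold change of 1.47 did not pass (SE 0.53, adjusted p = 0.0937). For mt-Nd4l, at 1.73, 1.88, 1.84 and 1.95 CPM, the log2 fold change was 0.37 (SE 0.90, adjusted p = 0.903). Myeloid markers summed to between 73.9 and 106 CPM in KOTP, and 6 of 11 tested were called lower than in HetTP. The log2 fold changes of the 11 ran from -5.02 to 2.01, with 0 called higher. Of 5 plasma cell markers 2 were called lower, and of 9 B cell markers 6 were called higher and 1 lower. Their part in the value of mt-Nd6 was not tested.

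Between the 2 sorts of homozygous cells no member was called by edgeR with 16 libraries, at an adjusted p of 1 for each, nor was any at an unadjusted p under 0.05. Of all genes 0.0187% were called. The log2 fold changes of KOTP against KOTN were 0.18 for mt-Nd1, 0.24 for mt-Nd2, 0.96 for mt-Nd3, 0.18 for mt-Nd4, -0.23 for mt-Nd4l, 0.07 for mt-Nd5 and 0.35 for mt-Nd6. With the spread of the 8 homozygous libraries alone edgeR called 0 members at an adjusted p of 0.0795 or more, while 2.37% of genes were called. At an unadjusted p under 0.05 that fit held 5 members, mt-Nd1, mt-Nd2, mt-Nd3, mt-Nd4 and mt-Nd6. DESeq2 and voom called 0 members as well, where they called 0.103% and 3.16% of genes. mt-Nd2 was the single member whose KOTP libraries (299 to 333 CPM) all lay above KOTN (253 to 295 CPM), against 2.52% of tested genes. In the fit of the 8 homozygous libraries 1 library was also left out at a time. There 3 members were called without KOTN 1, and 1 member without KOTN 2 or without KOTP 3. The share of all genes called in these leave-outs is not given here. On simulated libraries the fit of 8 made more false calls in this comparison than the adjustment allows.

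The difference between the reporter effects in the 2 genotypes was tested directly. It uses all 4 groups, and so shares the HetTN libraries with the comparisons above. edgeR with 16 libraries called 2 members, mt-Nd1 at 1.38 (SE 0.25, adjusted p = 0.0401) and mt-Nd2 at 1.81 on the log2 scale (SE 0.33, adjusted p = 0.0401), where 0.122% of all genes were called. A positive value means that tdTomato-positive cells stood higher relative to tdTomato-negative cells in homozygous than in heterozygous libraries. The value was 3.35 for mt-Nd3 (SE 0.76, adjusted p = 0.123), 1.26 for mt-Nd4 (SE 0.27, adjusted p = 0.0812) and 1.86 for mt-Nd6 (SE 0.39, adjusted p = 0.0812). For mt-Nd5 it was 0.61 (SE 0.24, adjusted p = 0.398) and for mt-Nd4l 1.03 (SE 1.27, adjusted p = 0.921). Both calls were lost in 9 of 16 leave-outs (HetTP 4 and each of the 8 homozygous libraries), with an adjusted p of up to 0.141, while 4 members were called without HetTN 1, HetTN 2 or HetTP 3. For these leave-outs the share of all genes called is not given here. DESeq2 called 5 members and 1.82% of genes, and voom 4 members and 0.0655% of genes. With library totals alone as the scale (adjusted p = 0.06 for each) and with the replicate number as a block (adjusted p = 0.0953 for each) neither mt-Nd1 nor mt-Nd2 passed. Each of these fits takes both genotypes together, whose libraries varied unequally.

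A ratio of counts within a library does not depend on its scaling. The count of mt-Nd6, the minus-strand member, relative to the sum of the other 6 was 5.8% ± 0.923 (SD, n = 4) in HetTN and 4% ± 0.725 in HetTP. It was 1.85% ± 0.301 in KOTN and 2.13% ± 0.366 in KOTP. The 8 homozygous libraries lay between 1.58% and 2.58% and the 8 heterozygous ones between 3.18% and 6.89%, so that the genotypes did not overlap. Counts of mt-Nd6 may include reads of plus-strand RNA at the same place, and genotype coincides with the deposited table. Between KOTN and HetTN the log2 ratio differed by -1.65 (exact permutation test, two-sided, p = 0.0286, adjusted p = 0.114 over 8 tests). Between KOTP and HetTP it differed by -0.91 (exact permutation p = 0.0286, adjusted p = 0.114). The p of 0.0286 is the smallest that 4 against 4 libraries allow, so that neither passed the adjustment. HetTP and HetTN differed by -0.54 (exact permutation p = 0.0571, adjusted p = 0.114), and KOTP and KOTN by 0.20 (exact permutation p = 0.314, adjusted p = 0.419).

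For mt-Nd4l relative to mt-Nd4 the groups overlapped between genotypes. The log2 ratio differed by -0.15 between HetTP and HetTN (exact permutation p = 0.743) and by -0.40 between KOTP and KOTN (exact permutation p = 0.0571, adjusted p = 0.114). It differed by 0.13 between KOTP and HetTP (exact permutation p = 0.457) and by 0.39 between KOTN and HetTN (exact permutation p = 0.314).

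**Figure D4:**
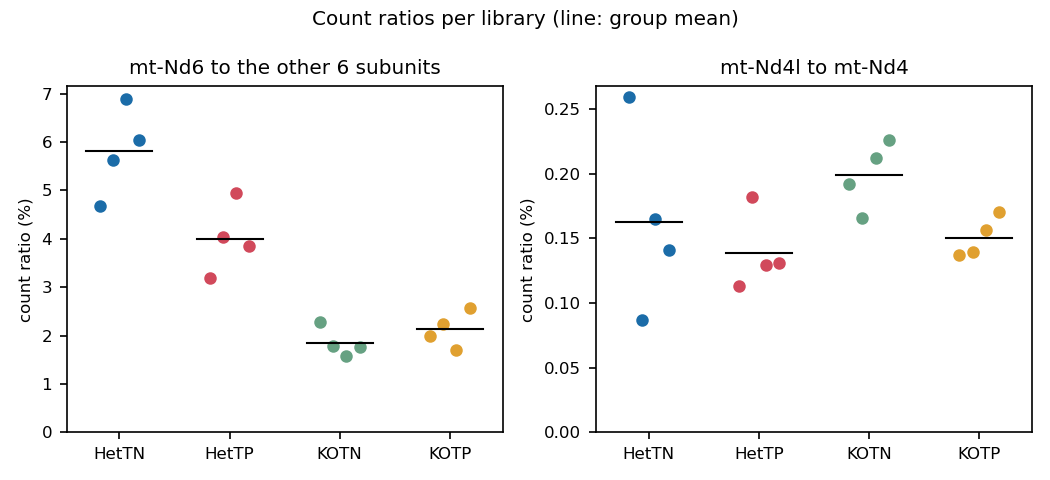
The left panel plots the count of mt-Nd6 as a percent of the summed count of the other 6 members and the right panel that of mt-Nd4l as a percent of mt-Nd4, with 1 point per library and a line at the mean of each group of 4. On the left the homozygous libraries lie between 1.58% and 2.58%, below all heterozygous ones at 3.18% to 6.89%.

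The other members' shares of the members' counts showed the same order in each group. mt-Nd1 made up 44% ± 3.73 (SD, n = 4) in HetTN, 38.8% ± 2.63 in HetTP, 40.3% ± 1.97 in KOTN and 41% ± 1.6 in KOTP. mt-Nd5 came next, at 25.9% to 36.1% by group mean, and mt-Nd4 after it, at 16.2% to 20%. mt-Nd2 held 7.31% ± 1.24 in HetTN and between 4.88% and 5.19% in the other groups. mt-Nd3 was at 0.257% and mt-Nd4l at 0.0392% of the members' counts in the group where each was highest.

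The 6 mitochondrial messages outside complex I, which encode subunits of complexes III and IV and of ATP synthase, were also lower outside HetTN by point estimate. Against HetTN, HetTP had 1 of these 6 called lower (mt-Co1, log2 fold change -1.05, SE 0.19, adjusted p = 0.0155), at a median of -0.92 against -1.26 for complex I. At an unadjusted p under 0.05 edgeR with 16 libraries held 5 of the 6 in that comparison. DESeq2 called 3 of them, where it called 6.63% of all genes, and voom called 0. With the 8 heterozygous libraries alone 0 were called. KOTN had 5 of 6 called lower against HetTN, all but mt-Co2, at a median of -1.14. With the 8 compared libraries alone 4 were called, and mt-Atp8 was not tested there. mt-Atp8 had 4 counts over the KOTN libraries together and 152 over HetTN. Its call (edgeR's quasi-likelihood test, adjusted p = 0.0445) was lost without a filter (adjusted p = 0.105) and with the replicate block (adjusted p = 0.0674). Between KOTP and HetTP edgeR, DESeq2 and voom called 0 of the 6, with 1 at an unadjusted p under 0.05 in edgeR. Between KOTP and KOTN they called 0, with 0 at an unadjusted p under 0.05. Whether the 2 sets of messages differed from each other was not tested.

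Nuclear genes for complex I differed less between the heterozygous sorts by point estimate. Of 36 measured genes 35 were tested, and in HetTP against HetTN 0 were called, with a median log2 fold change of -0.23 and a range from -0.78 to 0.16. Of the 35, 29 lay below 0, and 11 had an unadjusted p under 0.05. DESeq2 called 2 of them and voom 0. KOTN against HetTN had 1 called lower, Ndufb6 (log2 fold change -0.76, SE 0.21, adjusted p = 0.0265), a supernumerary subunit of the membrane arm, and a median of -0.01. With the 8 compared libraries alone 0 were called. KOTP against HetTP had 4 called higher and 0 lower, at a median of 0.17, where 5.06% of all genes were called higher. Ndufa6, a supernumerary subunit, rose from 216 ± 28.3 to 321 ± 20.3 CPM (SD, n = 4; log2 fold change 0.80, SE 0.17, adjusted p = 0.00515), and Ndufa2 and Ndufa13 rose by 0.61 (SE 0.15) and 0.66 (SE 0.19). In KOTP against KOTN 0 were called by edgeR, DESeq2 or voom, and 0 had an unadjusted p under 0.05 in edgeR, at a median of -0.02.

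**Figure D5:**
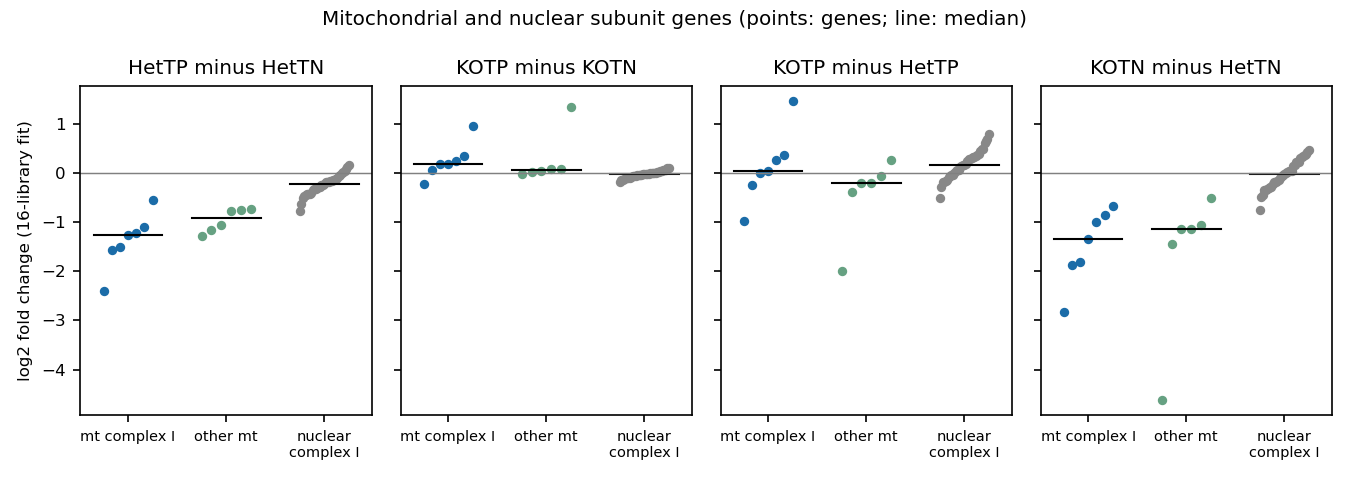
Each panel plots, for 1 comparison, the log2 fold change of the 7 mitochondrial complex I genes, the 6 other mitochondrial messages and the 35 tested nuclear complex I genes, with 1 point per gene and a line at the median. In HetTP minus HetTN the medians are -1.26, -0.92 and -0.23, and in KOTN minus HetTN they are -1.34, -1.14 and -0.01.

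Genes that make, read and keep the mitochondrial genome were followed by lists. Complex I assembly factors (16 tested), mitochondrial transcription factors (11 tested) and mitochondrial DNA replication genes (11 tested) had 0 called by edgeR with 16 libraries in all 5 comparisons. At an unadjusted p under 0.05 each list had at most 3 genes in a comparison. Other tools called at most 2 assembly factors (voom, KOTP against HetTP), 1 transcription factor (DESeq2 and voom, KOTP against HetTP) and 1 replication gene (DESeq2, KOTN against HetTN). edgeR with the 8 compared libraries alone called 1 replication gene in KOTP against HetTP. Of 22 tested genes for mitochondrial RNA processing and stability, edgeR with 16 libraries called 2, both lower in KOTN than in HetTN, where 4.88% of all genes were called lower. They were Rexo2, a nuclease that degrades short RNA in mitochondria (log2 fold change -0.80, SE 0.19, adjusted p = 0.0115), and Fastk (-0.61, SE 0.18, adjusted p = 0.0394), whose mitochondrial isoform is known to act on mt-Nd6 RNA. The call of Rexo2 held in all 10 other settings, and that of Fastk was lost in 5 of 10, among them the 8 compared libraries alone and voom. DESeq2 also called 1 of the 22 in HetTP against HetTN, among 709 genes in all. In KOTP against HetTP DESeq2 called 1 of the 22 among 1476 genes, and voom 1 among 1220. Of 17 genes for import and structure taken as measures of mitochondrial content, 3 were called lower in KOTN than in HetTN, Tomm70a, Tomm40 and Hspd1, at -0.86, -0.75 and -0.78. With the 8 compared libraries alone 2 were called, without Hspd1, and with voom 2, without Tomm40. In KOTP against HetTP, where 5.22% of all genes were called lower, 5 of the 17 were called lower with 16 libraries and 3 with the 8 compared libraries alone, among them in both Tomm40 (-1.06, SE 0.19, adjusted p = 0.00119), a channel of the outer membrane. In HetTP against HetTN 0 of the 17 were called by edgeR, DESeq2 or voom, with 1 at an unadjusted p under 0.05 in edgeR. In KOTP against KOTN the same tools called 0, with 0 at an unadjusted p under 0.05 in edgeR.

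Outside the mitochondrial genome, the genes whose level was most like the members' mean were H2afy, Ppdpf, Exoc8, Dnajc10 and Fam63b. The lower of the Pearson correlations over the 8 heterozygous and over the 8 homozygous libraries was 0.835, 0.819, 0.77, 0.762 and 0.756. These libraries share sorts, tables and depth, and the values describe likeness of pattern only. The members are part of that mean, so their own correlations with it are raised and cannot be set beside those of outside genes. mt-Nd1 had a correlation of 0.996 over the heterozygous and 0.958 over the homozygous libraries, while mt-Nd4l had 0.967 and -0.659. Over the homozygous libraries the rest stood at 0.792 (mt-Nd2), 0.886 (mt-Nd3), 0.592 (mt-Nd4), 0.595 (mt-Nd5) and 0.692 (mt-Nd6).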

How the data were processed

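The tools named in the submitters' processing notes are Trim Galore, STAR 2.2.0 and featureCounts, with mm10 as the genome. Raw counts of reads over coding sequence were deposited in 1 table per genotype. The deposited per-million columns, used here as a score for the ratio alternative only, amounted to between 1.35 and 1.5 counts per mapped read of the divisor in the heterozygous and between 0.369 and 0.419 in the homozygous table, so the tables may have been made differently. Of 22680 entries per table, 4 with duplicated names and 1 without a partner were left out.

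Levels are CPM of the library total. Tests used edgeR 4.0.16 in R 4.3.3 (TMM scaling, filterByExpr by group, robust quasi-likelihood fit of 4 group means over 16 libraries, 12 residual degrees of freedom), with Benjamini-Hochberg adjustment over 10687 genes and calls under 0.05. SEs are the size of the log2 fold change over the root of F. Alternatives were RLE, upper quartile and plain totals, totals without mitochondrial genes, 2 other filters, DESeq2 1.42.0, limma 3.58.1 voom with sample weights, a replicate block, the compared libraries alone and leave-outs; leave-outs of the last were added after the data were seen. Nuclear copies were found with BLAST+ 2.17.0. Ratios were tested with exact two-sided permutation tests (SciPy 1.17.1).

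The members, lists and tests were chosen with earlier results of these data known. Named genes were all members, Zfp318, the other mitochondrial messages, up to 3 called genes per list and comparison with the smallest p (mean log2 CPM at or above 3), and the 5 most alike in pattern. The scripts were tested on simulated data with each genotype's own spread. There the fit of 16 libraries made more false calls than the adjustment allows in HetTP against HetTN, where most of its calls were false, and, to a lesser degree, in both comparisons between genotypes. The fit of the 8 compared libraries held to it in HetTP against HetTN, but not in the other 3 comparisons. Reads carry no molecular identifiers.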

Additional observations from a re-analysis of the deposited data

Results flagged for a closer look

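mt-Nd4l in KOTN library 2 stood at 1.78 CPM, apart from the other 3 libraries of that group at 2.32 to 2.36 CPM. In raw counts it had 16, against 18, 22 and 20 in KOTN libraries 1, 3 and 4, a gap of few reads. KOTN library 2 was the 1 library flagged among 36 groups examined, where chance flags about 1 in 20. The difference between the reporter effects in the genotypes passed the direct test for mt-Nd1 at 1.38 and for mt-Nd2 at 1.81 on the log2 scale (edgeR's quasi-likelihood test, adjusted p = 0.0401 for each). Both calls were lost in 9 of 16 leave-outs, with library totals alone (adjusted p = 0.06) and with the replicate number as a block (adjusted p = 0.0953). No explanation was tested for these values.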

How the results depend on the processing

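With 16 libraries, 5 members were called in HetTP against HetTN, 0 in KOTP against KOTN, 1 in KOTP against HetTP, 6 in KOTN against HetTN and 2 in the difference between genotypes. Of all genes 1.07%, 0.0187%, 10.3%, 10.5% and 0.122% were called, in that order. The shares called in leave-outs are not given here. For HetTP against HetTN, voom called 3, the 8 heterozygous libraries alone 0, leave-outs 4 to 5 and leave-outs of those 8 libraries 0 to 0. For KOTP against HetTP, the 8 compared libraries alone called 0, leave-outs 0 to 1, and leave-outs of those 8 libraries 0 to 1. For KOTP against KOTN these last called 0 to 3. For KOTN against HetTN leave-outs called 5 to 6. For the difference between genotypes, library totals alone called 0, DESeq2 5, voom 4 and leave-outs 0 to 4. With library totals alone 6 of 10687 genes were called in that difference. Direction turned for results that did not pass. mt-Nd4l relative to mt-Nd4 between HetTP and HetTN was 0.13 with an offset of 10 counts, and its leave-outs ran from -0.41 to 0.11. In KOTP against HetTP, mt-Nd1 was -0.18 with library totals alone, and from -0.12 to 0.15 in leave-outs. mt-Nd2 there was -0.03 with RLE scaling, -0.22 with library totals alone, -0.0011 without mitochondrial genes in the totals, -0.02 with the filter at 5 CPM in 4 libraries, -0.03 with DESeq2, -0.0008 with the 8 compared libraries alone, and from -0.19 to 0.22 in leave-outs. The cause was not tested. Deviations of same-numbered libraries from their group means were nearly uncorrelated over genes (correlations from -0.0289 to 0.0868). The main tests left the libraries unpaired, but such correlations cannot show whether same-numbered libraries share an animal. The mt-Nd6 ratio was lowest in library 1 and highest in library 3 of both HetTN and HetTP, unlike in KOTN or KOTP. With the replicate block, 4 members were called in HetTP against HetTN, 0 in KOTP against HetTP and 0 in the difference between genotypes, and it changed neither other count. Of 10687 genes the block fit called 54 in HetTP against HetTN, 956 in KOTP against HetTP and 1 in the difference between genotypes. The filter at 5 CPM left mt-Nd4l untested, whose 9 to 73 counts per library limit its precision. Labels and counts cannot separate genotype from table.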
